A study of Mus musculus with 12 samples.

Results

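Tnc, Postn, Thbs1, Thbs2, Thbs4, Ctgf, Cyr61, Spp1, Sparc and Fn1, the 10 genes followed here, encode matricellular and provisional matrix proteins of the heart. They were picked out of the count table by symbol, and all 10 were found among the 24062 gene symbols of the count table, Ctgf and Cyr61 under these older names for Ccn2 and Ccn1. Whole hearts of 12 mice in 4 groups of 3 were profiled by RNA-Seq of polyA RNA, with 1 library per mouse, to compare 2 mouse models that lack normal function of LEMD2, a protein of the inner nuclear membrane. Adult hearts came from mice aged 2 months that were either Lemd2 WT or homozygous for a knock-in point mutation, Lemd2 KI/KI (c.T38>G), which is present in every cell of the body. Neonatal hearts came from postnatal day 1 (P1) and were either Lemd2-floxed, carrying loxP sites around exon 1 and no Cre, or cKO, carrying the same floxed alleles and the Myh6-Cre transgene. Myh6-Cre is driven by the cardiac alpha myosin heavy chain promoter and acts in cardiomyocytes, so the fibroblasts, vessel cells and macrophages of cKO hearts keep Lemd2. The models differ in age, allele and control line together, and these cannot be told apart. Among the P1 hearts the Cre transgene is present only in cKO, so an effect of Cre itself cannot be told apart from that of Lemd2 loss. Which questions the comparisons addressed is given by the study's design: KI/KI against WT asks what the point mutation does in the adult heart, and cKO against floxed what loss of the protein from cardiomyocytes does in the newborn heart.

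Matricellular proteins are secreted into the matrix but do not build its fibers. They bind collagens, growth factors and cell surface receptors such as integrins, and they are known for being abundant in developing and injured tissue and scarce in the healthy adult heart. Fibronectin, encoded by Fn1, forms the first, provisional matrix of a wound together with fibrin, onto which fibroblasts move before collagen is laid down. Tenascin-C (Tnc), periostin (Postn), the thrombospondins (Thbs1, Thbs2 and Thbs4), the CCN proteins connective tissue growth factor (Ctgf) and cysteine-rich angiogenic inducer (Cyr61), osteopontin (Spp1) and SPARC (Sparc) are the matricellular members. Ctgf and Cyr61 are widely used as readouts of the Hippo pathway coactivators YAP and TAZ, which act through TEAD transcription factors.

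Promoter sequence was read from RefSeq for build GRCm38.p6 for 7 of the 10 genes (10 annotated start sites), from 250 bases before to 50 bases after the start site. Thbs1, Ctgf and Fn1 had no entry. The promoters of Cyr61 and Thbs4 are shown because they held the letters of a TEAD site, that of Thbs2 because this thrombospondin differed from the other two in its values, and that of the second Postn start site because it held a TATA box near the start. All are written 5′ to 3′ on the gene's strand, at chr3:145649936-145650235 (minus strand) for Cyr61, chr13:92794769-92795068 (minus strand) for Thbs4, chr17:14694213-14694512 (minus strand) for Thbs2 and chr3:54360857-54361156 (plus strand) for Postn. Capitals mark matches on either strand to the TEAD motif GGAATG. They also mark the AP-1 motif TGANTCA, the CArG box of SRF, and TATAAA, the letters of a TATA box. In Thbs2 these letters are on the opposite strand, at position -126 from the start site.
Cyr61: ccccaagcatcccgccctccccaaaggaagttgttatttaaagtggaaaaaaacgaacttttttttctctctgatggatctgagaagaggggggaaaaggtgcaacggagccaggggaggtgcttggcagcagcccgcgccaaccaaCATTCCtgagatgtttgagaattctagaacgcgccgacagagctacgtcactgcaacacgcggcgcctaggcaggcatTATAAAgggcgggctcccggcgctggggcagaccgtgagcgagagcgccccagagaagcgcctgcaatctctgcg
Thbs4: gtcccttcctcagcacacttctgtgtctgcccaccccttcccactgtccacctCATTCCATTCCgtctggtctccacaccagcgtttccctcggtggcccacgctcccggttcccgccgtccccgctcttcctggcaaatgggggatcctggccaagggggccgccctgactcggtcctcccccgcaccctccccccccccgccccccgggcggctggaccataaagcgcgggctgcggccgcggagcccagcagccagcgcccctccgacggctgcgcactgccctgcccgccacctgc
Thbs2: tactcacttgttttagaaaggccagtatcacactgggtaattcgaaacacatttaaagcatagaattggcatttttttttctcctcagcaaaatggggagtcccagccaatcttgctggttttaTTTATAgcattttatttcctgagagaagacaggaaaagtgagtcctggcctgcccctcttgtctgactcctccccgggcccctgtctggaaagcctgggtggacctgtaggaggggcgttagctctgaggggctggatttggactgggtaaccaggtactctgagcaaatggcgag
Postn: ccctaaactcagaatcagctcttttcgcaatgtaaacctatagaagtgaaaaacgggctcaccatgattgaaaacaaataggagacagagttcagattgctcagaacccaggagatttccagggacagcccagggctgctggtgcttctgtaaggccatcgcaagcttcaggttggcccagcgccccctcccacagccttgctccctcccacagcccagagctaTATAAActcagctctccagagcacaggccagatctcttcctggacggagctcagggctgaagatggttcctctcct
In the Cyr61 promoter the TEAD letters, read on the opposite strand, began at position -103 from the start site and the TATA box at -25. In Thbs4 there were 2 TEAD matches on the opposite strand that shared a base, at -197 and -192, and in the second Postn promoter the TATA box began at -26. GGAATG was found in 2 of the 10 promoters, against 14.7% of all 32851 promoters of this length in the table. TATAAA was found at any position in 6 of 10 (13.6% of all), or 5 of the 7 genes. The windows of the Tnc start sites overlap and hold the same match. TGANTCA was found in 0 of 10 (7.81%) and the CArG box in 0 of 10 (1.63%). CAGAC, a short SMAD motif not put in capitals, was found in 9 of 10 (49.6%). These matches describe the letters of the windows and were not tested as binding sites.

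Library totals lay between 37063669 and 44789753 counts, so 3 counts, taken as the floor, corresponded to at most 0.0965 CPM (counts scaled to a common library size, here normalized over the 12 hearts), a floor that covers counting error only. Lemd2, normalized over the 12 hearts, lay at 32.0 to 34.8 CPM in WT, 24.8 to 25.6 in KI/KI, 24.3 to 25.4 in floxed and 6.59 to 13.1 in cKO hearts, the lowest in cKO 4. The share of counts on Rn45s, a ribosomal RNA precursor, was 2.54% to 3.59% in WT, 1.16% to 2.18% in KI/KI, 0.509% to 0.817% in floxed and 0.486% to 1.60% in cKO hearts. Y-linked Ddx3y was at 0.0399 CPM in cKO 4 and between 96.9 and 194 CPM in the other 11 hearts, while Xist, transcribed from the inactive X chromosome of female cells, was at 612 CPM in cKO 4 and between 0.170 and 2.02 CPM in the others. By these genes cKO 4 was a female heart and the others were male, which the labels do not give. Summed over 8 lung marker genes, CPM lay between 0.729 and 115 in the adult hearts and between 3.28 and 469 in the P1 hearts, highest in floxed 2, floxed 1 and cKO 4. The cardiomyocyte marker list was high in every heart, at 50673 CPM or more.

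All 10 genes were detected in all 12 hearts, and together they took 0.0960% to 0.102% of the counts in WT hearts, 0.111% to 0.280% in KI/KI, 0.478% to 0.523% in floxed and 0.785% to 1.10% in cKO hearts. Those ranges did not overlap. For 7 of the genes the order of the group means was cKO, floxed, KI/KI and WT from high to low. Thbs2 exchanged the adult groups, and Ctgf and Cyr61 were lowest in floxed hearts, below the adult hearts, while being highest in cKO hearts. In Tnc, Postn and Cyr61 no neighbouring groups in that order overlapped. In Thbs1, Fn1 and Ctgf the KI/KI and WT hearts overlapped, in Thbs4 and Sparc the floxed and KI/KI hearts, in Spp1 the cKO and floxed as well as the floxed and KI/KI hearts, and in Thbs2 both the cKO and floxed and the WT and KI/KI hearts. The share of all genes with this order of means, or with no overlap between neighbouring groups, was not taken. For pairs of groups, cKO hearts lay wholly above floxed hearts in 20.9% of all genes. KI/KI hearts lay wholly above WT hearts in 11.1%, and floxed above WT hearts in 36%. In whole tissue, a change in the number of cells of a type cannot be told apart from a change in RNA per cell.

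**Figure D1:**
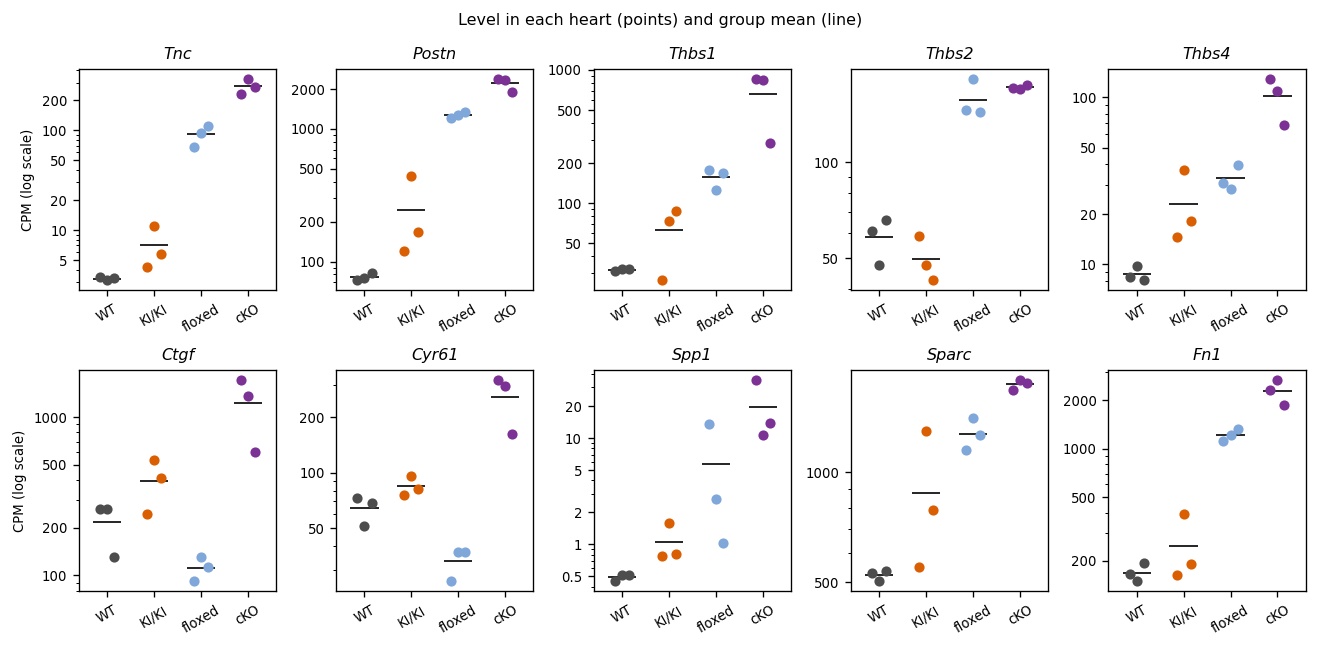
Level of each gene in the 12 hearts, in CPM normalized over all 12 libraries on a log axis, with 1 point per heart and a line at the group mean. In Tnc, Postn, Thbs1, Thbs2 and Fn1 every P1 heart lies above every adult heart, whereas Ctgf and Cyr61 are lowest in the 3 floxed hearts and highest in the 3 cKO hearts.

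Levels were compared between genes as CPM per kilobase of annotated exon, normalized over the 12 hearts. Sparc, a collagen-binding protein, was the most abundant in WT hearts at 192 ± 6.46 CPM per kilobase (mean ± SD, n = 3), followed by Ctgf at 78.8 ± 27.4 and Cyr61 at 31.9 ± 5.70. Tnc and Spp1 were the scarcest, at 0.419 ± 0.0133 and 0.301 ± 0.0237 CPM per kilobase. In WT hearts the ranges of neighbours in this order overlapped only between Postn (23.3 ± 1.44) and Fn1 (20.0 ± 2.61). In floxed hearts Sparc (468 ± 46.8) was followed by Postn (389 ± 19.7) and Fn1 (145 ± 12.6), with Ctgf next at 40.3 CPM per kilobase. In cKO hearts Postn was at 674 ± 82.3 and Sparc at 639 ± 21.1 CPM per kilobase, with overlapping ranges, and Ctgf reached 442 ± 205.

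**Figure D2:**
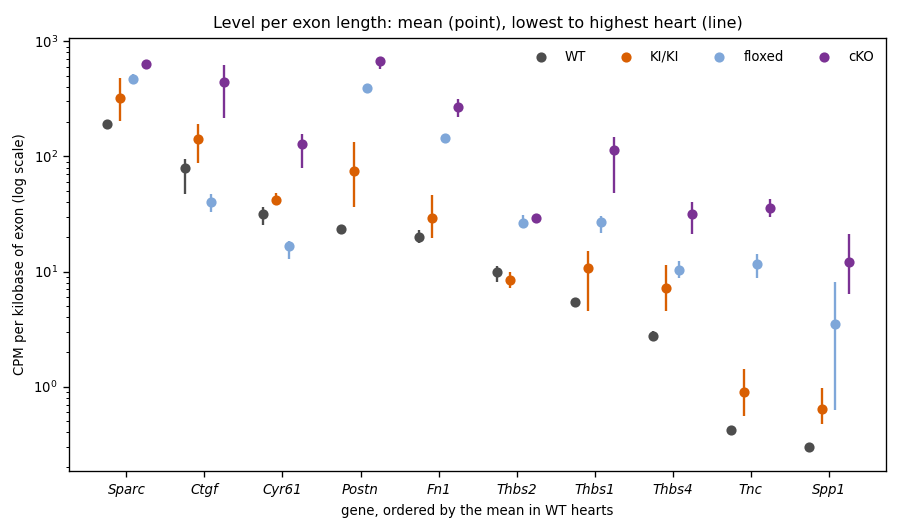
Level of each gene per kilobase of exon on a log axis, with the mean of 3 hearts as a point and a line from the lowest to the highest heart for each group. Sparc leads in WT, KI/KI and floxed hearts, and Spp1 is lowest in every group.

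In adult KI/KI hearts 9 of the 10 genes had a higher mean than in WT hearts, but none passed the test, and 1 of the 3 KI/KI hearts, KI/KI 5, carried the highest level of most of them. Values of each age are given below as CPM normalized over the 6 hearts of that age. A gene was called where edgeR's quasi-likelihood test, adjusted over all tested genes, gave a p under 0.05 and the groups differed more than 2-fold. With that test 0 of the 10 genes were called, as were 0% of all 14592 genes tested, and the smallest adjusted p of any gene was 0.0743. At an unadjusted p under 0.05, 8 of 10 were higher and 0 lower (8.77% of all genes were higher and 7.2% lower at that level). The log2 fold changes had a median of 0.93 over the 10 genes and 0.00 over all genes, and 50.6% of all genes had a value above 0. Without KI/KI 5 the median over the 10 genes was 0.61, with Postn and Thbs4 at 0.91 each, Tnc at 0.62, Sparc at 0.36 and Fn1 at 0.07, and with another heart left out it lay between 0.83 and 1.21. In 6 genes (Tnc, Postn, Thbs4, Cyr61, Spp1 and Sparc) the 3 KI/KI hearts lay above the 3 WT hearts (11.1% of all genes). DESeq2, the tool named in the study's methods, called 2 of the genes, Tnc (adjusted p = 0.0473) and Thbs4 (adjusted p = 0.00182), where it called 1.08% of 14021 genes, and limma-voom called none.

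In newborn cKO hearts all 10 genes had a higher mean than in floxed hearts, led by Ctgf and Cyr61 at 11.02-fold and 7.72-fold. The test called 5 of the 10 genes higher than in floxed hearts, Ctgf, Cyr61, Thbs1, Thbs4 and Tnc, where 2.77% of all 15317 genes tested were called higher. Postn, Fn1 and Sparc were also higher at an adjusted p under 0.05 with less than a 2-fold change, which made 8 of 10 at that level (9.15% of all genes). The same 8 genes were those in which the 3 cKO hearts lay above the 3 floxed hearts (20.9% of all genes). The median log2 fold change was 1.63 over the 10 genes and -0.00 over all genes. The number of genes called lay between 2 and 6 when each heart was left out in turn. Without cKO 4, the female heart, the same 5 genes were called, while the median over the 10 genes was 1.24. It was 1.19 with the level of Y-linked genes as a covariate, and between 1.49 and 1.75 with another heart left out. The number of genes called was 2 (Tnc and Cyr61) without floxed 1 and 3 (Tnc, Ctgf and Cyr61) without floxed 2.

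**Figure D3:**
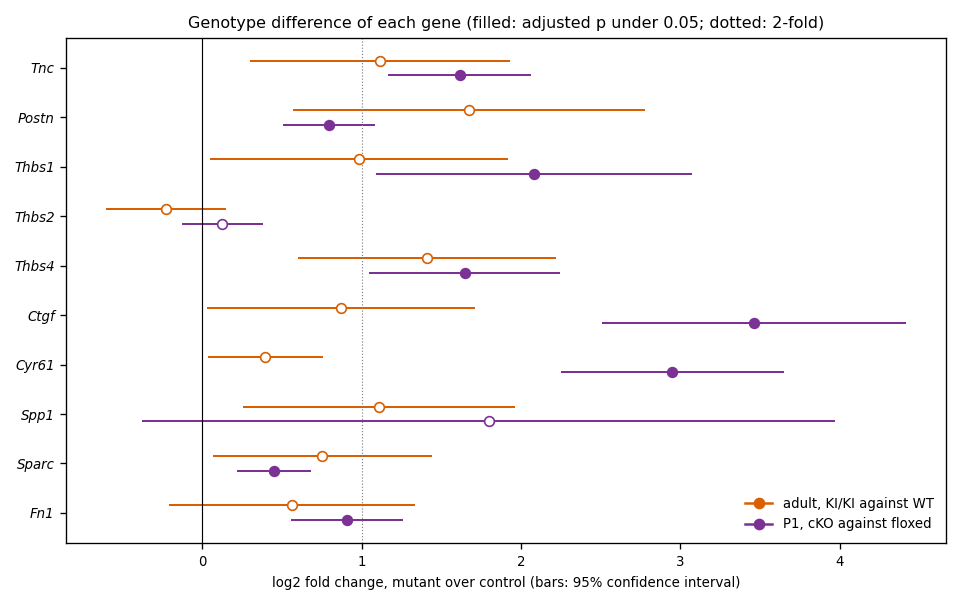
Log2 fold change of each gene in KI/KI against WT adult hearts and in cKO against floxed P1 hearts, with 95% confidence intervals from edgeR's test. Filled points have an adjusted p under 0.05, and the dotted line marks a 2-fold change. Ctgf (3.46) and Cyr61 (2.95) lie farthest to the right, in the P1 hearts.

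Ctgf and Cyr61 encode the CCN proteins, secreted regulators of matrix production and cell adhesion, and lie on chromosome 10 (24595442 to 24598683, plus strand) and chromosome 3 (145646976 to 145649981, minus strand) of GRCm38. Ctgf was at 104, 146 and 127 CPM in floxed 1 to 3 and at 1971, 1527 and 665 CPM in cKO 4 to 6. All 3 cKO hearts lay far above all floxed hearts, and cKO 6 was the lowest of the 3. The log2 fold change was 3.46 (standard error 0.40, 95% confidence interval 2.51 to 4.42, edgeR adjusted p = 0.00671). Without floxed 1 its adjusted p was 0.0525 in edgeR's test, at a log2 fold change of 3.33.

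Cyr61, whose promoter with its TEAD letters is shown above, was at 29.3, 41.9 and 41.6 CPM in the floxed hearts and at 365, 330.5 and 179 CPM in the cKO hearts. Again cKO 6 was lowest and the groups were far apart. The log2 fold change was 2.95 (standard error 0.30, 95% confidence interval 2.25 to 3.65, edgeR adjusted p = 0.00555), and Cyr61 kept an adjusted p under 0.05 in each of the 6 fits that left out a heart.

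In the adult hearts neither CCN gene passed the test. Ctgf was at 231, 232 and 118 CPM in WT 1 to 3 and at 216, 473 and 369 CPM in KI/KI 4 to 6, so that KI/KI 4 fell inside the WT range (log2 fold change 0.87, 95% confidence interval 0.03 to 1.71, edgeR adjusted p = 0.308). Cyr61 was at 64.8, 45.5 and 61.8 CPM in WT and at 67.3, 85.7 and 72.4 CPM in KI/KI hearts. These groups did not overlap, and the log2 fold change was 0.40 (95% confidence interval 0.03 to 0.76, edgeR adjusted p = 0.292).

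The difference between the models was tested directly, as the interaction of genotype and model in 1 edgeR fit of all 12 hearts. Ctgf and Cyr61 were called, 2 of the 10 genes, where 0.458% of all 15729 genes were called in that direction. The log2 fold change in cKO hearts exceeded that in KI/KI hearts by 2.60 for Ctgf (95% confidence interval 1.35 to 3.84, edgeR adjusted p = 0.0424) and by 2.56 for Cyr61 (95% confidence interval 1.80 to 3.31, edgeR adjusted p = 0.0114). With each of the 12 hearts left out in turn, Cyr61 stayed under an adjusted p of 0.05 in 12 of 12 fits and Ctgf in 3 of 12, the adjusted p of Ctgf ranging from 0.00876 to 0.125. For the other 8 genes the intervals of the difference included 0, the widest being Spp1 (-2.03 to 3.41) and the narrowest Thbs2 (-0.09 to 0.80).

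**Figure D4:**
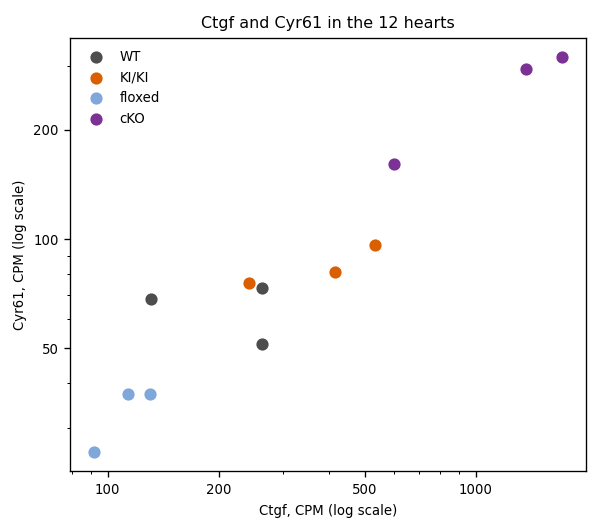
Ctgf against Cyr61 in each of the 12 hearts, both in CPM normalized over the 12 libraries on log axes. The 3 floxed hearts sit at the lower left, the adult hearts in the middle and the 3 cKO hearts at the upper right, with cKO 6 the nearest to the others.

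Thbs1, Thbs2 and Thbs4 encode thrombospondins, multimeric glycoproteins that bind matrix and growth factors, and Thbs1 is known as an activator of latent TGF-beta. Thbs1 (chromosome 2, 118111876 to 118127133) was at 199.9, 141 and 187 CPM in the floxed hearts and at 987, 939.5 and 314 CPM in cKO hearts. The groups did not overlap, and cKO 6 was nearest to the controls (log2 fold change 2.08, standard error 0.42, edgeR adjusted p = 0.0217). Its edgeR adjusted p was 0.0970 without floxed 1, 0.0858 without floxed 2, 0.0596 without floxed 3 and 0.0786 without cKO 5. In the adult hearts it was at 27.5, 28.3 and 29.1 CPM in WT and at 23.6, 65.4 and 78.1 CPM in KI/KI. KI/KI 4 lay below every WT heart and the other 2 above, for a log2 fold change of 0.98 (95% confidence interval 0.05 to 1.92, edgeR adjusted p = 0.303). Without KI/KI 4 it was 1.35, with an adjusted p of 0.0205 in edgeR's test.

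Thbs4 (chromosome 13, 92751590 to 92794818), a thrombospondin of tendon and of the stressed heart, was at 34.6, 31.8 and 43.8 CPM in the floxed hearts and at 148, 122 and 75.8 CPM in cKO hearts. The cKO hearts all lay above the floxed hearts (log2 fold change 1.65, standard error 0.25, edgeR adjusted p = 0.0110), with adjusted p of 0.0705 and 0.0527 without floxed 1 and floxed 2. In WT hearts it was at 7.41, 8.70 and 7.26 CPM and in KI/KI hearts at 12.98, 32.5 and 16.2 CPM. The adult groups did not overlap either, and Thbs4 had the smallest unadjusted p of the 10 genes there (log2 fold change 1.41, 95% confidence interval 0.60 to 2.22, edgeR adjusted p = 0.212).

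Thbs2 (chromosome 17, 14665500 to 14694235), known as an inhibitor of angiogenesis, overlapped between genotypes at both ages. It was at 53.8, 42.2 and 59.3 CPM in WT and at 52.1, 42.2 and 38.0 CPM in KI/KI hearts (log2 fold change -0.23, 95% confidence interval -0.60 to 0.15, edgeR adjusted p = 0.486). At P1 it was at 165, 204 and 160.0 CPM in floxed and at 197, 189.9 and 193 CPM in cKO hearts (log2 fold change 0.13, 95% confidence interval -0.13 to 0.38, edgeR adjusted p = 0.440). Both intervals lie within a 2-fold change in either direction.

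Tnc, which encodes tenascin-C, an anti-adhesive glycoprotein of embryonic and wounded tissue, lies on chromosome 4 (63959785 to 64047015). It was at 77.6, 106 and 123 CPM in the floxed hearts and at 268, 368 and 305 CPM in cKO hearts. The 3 cKO hearts were close to each other and all above the floxed hearts, for a log2 fold change of 1.61 (standard error 0.19, edgeR adjusted p = 0.00671), and Tnc kept its call in each of the 6 fits without a heart. In WT hearts it was at 2.95, 2.78 and 2.97 CPM, or 103 to 121 counts, and in KI/KI hearts at 3.81, 9.77 and 5.10 CPM. The adult groups did not overlap, with KI/KI 5 far above the rest (log2 fold change 1.11, 95% confidence interval 0.30 to 1.93, edgeR adjusted p = 0.246).

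Postn, which encodes periostin, a collagen-crosslinking aid and a marker of activated fibroblasts, lies on chromosome 3 (54361109 to 54391037). In WT hearts it was at 64.1, 66.6 and 73.7 CPM and in KI/KI hearts at 107, 393 and 149 CPM. All KI/KI hearts were above all WT hearts, KI/KI 5 the most, and the log2 fold change of 1.67 was the largest of the 10 genes with all 6 adult hearts (95% confidence interval 0.57 to 2.78, edgeR adjusted p = 0.239). Without KI/KI 5 it was 0.91. At P1 it was at 1377, 1432 and 1498 CPM in floxed and at 2745, 2643 and 2109.9 CPM in cKO hearts. The rise was under 2-fold, with a log2 fold change of 0.79 (standard error 0.12, edgeR adjusted p = 0.0110), and in the fit of all 12 hearts together its adjusted p was 0.130. Without floxed 1, floxed 2 or cKO 5 it was 0.0736, 0.0566 or 0.0534 in edgeR's test.

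Sparc, a collagen-binding glycoprotein needed for collagen processing, lies on chromosome 11 (55394500 to 55423183). It was at 1301, 1573 and 1410.1 CPM in the floxed hearts and at 1928, 2002 and 1945 CPM in cKO hearts. The groups did not overlap and the cKO hearts were nearly equal, for a log2 fold change of 0.45 (standard error 0.10, edgeR adjusted p = 0.0266). Its adjusted p was 0.177 in the fit of all 12 hearts and 0.0551 with the level of Y-linked genes as a covariate, and between 0.0603 and 0.132 in edgeR's test without floxed 1, floxed 2, floxed 3 or cKO 5. In the adult hearts Sparc was at 468, 445 and 484 CPM in WT and at 489, 1151 and 702 CPM in KI/KI (log2 fold change 0.75, 95% confidence interval 0.07 to 1.44, edgeR adjusted p = 0.291).

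Spp1, which encodes osteopontin, an integrin and CD44 ligand made by macrophages among other cells, lies on chromosome 5 (104435118 to 104441050) and had the largest SD relative to its mean of the 10 genes in both P1 groups, though not in the adult groups. In floxed 1 to 3 it was at 15.3, 2.97 and 1.14 CPM, and in cKO 4 to 6 at 40.4, 11.9 and 15.2 CPM. The groups overlapped, floxed 1 lying among the cKO hearts (log2 fold change 1.80, 95% confidence interval -0.38 to 3.97, edgeR adjusted p = 0.213). With a heart left out the value ran from 1.06 without cKO 4 to 3.43 without floxed 1, with adjusted p of 0.444 and 0.0806 in edgeR's test. In WT hearts it was at 0.397, 0.459 and 0.466 CPM, resting on 14 to 19 counts, and in KI/KI hearts at 0.689, 1.42 and 0.725 CPM. These did not overlap (log2 fold change 1.11, 95% confidence interval 0.25 to 1.96, edgeR adjusted p = 0.258).

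Fn1, which encodes fibronectin, lies on chromosome 1 (71585520 to 71653200). It was at 1269, 1376 and 1485 CPM in the floxed hearts and at 2687, 3004 and 2086 CPM in cKO hearts. The cKO hearts all lay above the floxed hearts, for a log2 fold change of 0.91 (standard error 0.15, edgeR adjusted p = 0.0130). Without cKO 6 the change passed 2-fold and Fn1 was called. Without floxed 1, floxed 2 or cKO 5 the edgeR adjusted p was 0.0832, 0.0623 or 0.0525. In the adult hearts Fn1 was at 146, 132 and 174 CPM in WT and at 146, 348 and 170.2 CPM in KI/KI. Only KI/KI 5 lay above the WT hearts (log2 fold change 0.56, 95% confidence interval -0.21 to 1.33, edgeR adjusted p = 0.417).

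Tnc, Thbs1, Ctgf, Spp1 and Fn1 each overlap 1 other annotated gene on GRCm38. Of these neighbours Apol7d, which overlaps Fn1, was the one present in the table, with 0 to 6 counts per heart, and the strand setting of the counting is not given in the sources used here.

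The mutant hearts of a group differed among themselves. KI/KI 5 was the highest of the 6 adult hearts in 8 of the 10 genes (29.1% of all genes), and the median of the 10 genes' log2 differences from the WT mean was 1.33 in KI/KI 5, 0.77 in KI/KI 6 and 0.23 in KI/KI 4. In KI/KI 4, 6 of the 10 genes lay above all 3 WT hearts, a count whose share over all genes was not taken. At P1 the median difference from the floxed mean was 1.72 in cKO 4, 1.71 in cKO 5 and 0.95 in cKO 6. cKO 4 was the highest of the 6 in 6 genes (20% of all genes). The share of Rn45s was also highest in cKO 4 and cKO 5 among the P1 hearts and lowest in KI/KI 5 among the adult hearts, and with Rn45s left out of the table the test again called 0, 5 and 2 of the 10 genes in the adult, P1 and between-model comparisons.

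**Figure D5:**
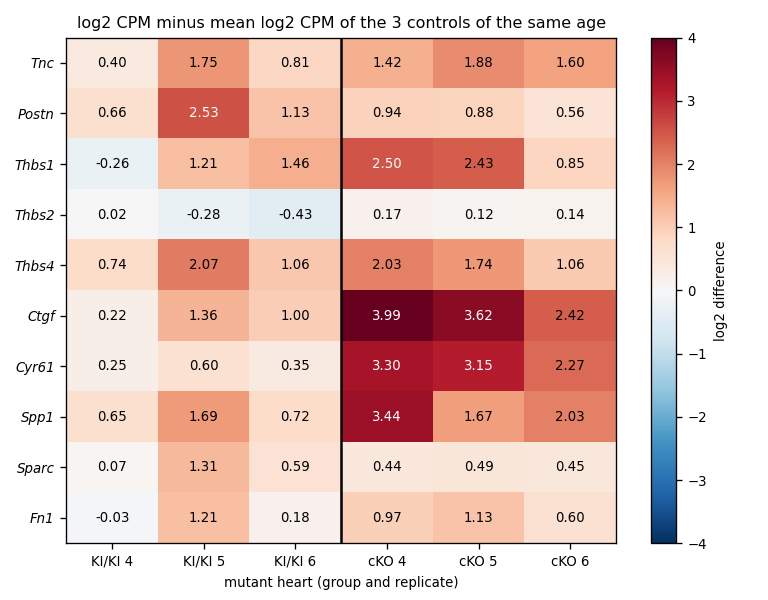
Difference in log2 CPM of each mutant heart from the mean of the 3 control hearts of the same age, for the 10 genes. KI/KI 5 is the highest KI/KI heart for 8 genes, and Ctgf reaches 3.99 in cKO 4 against 2.42 in cKO 6.

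Between the control groups, P1 floxed and adult WT hearts, age and line cannot be told apart. Of the 10 genes 8 were called higher in floxed hearts, where 14% of all 15729 genes were, in edgeR's fit of the 12 hearts. The log2 fold changes were 4.80 for Tnc (adjusted p = 5.3e-07), 4.06 for Postn, 3.52 for Spp1, 2.86 for Fn1, 2.30 for Thbs1, 1.90 for Thbs4, 1.44 for Thbs2 and 1.28 for Sparc. The value of Spp1 rested largely on floxed 1, without which it was 1.88 (edgeR adjusted p = 0.0253). The CCN genes had values below 0. Cyr61 was lower in floxed hearts, with a log2 fold change of -0.94 (edgeR adjusted p = 0.00570, a level at which 30.9% of all genes were lower), and Ctgf was at -0.96 and just missed the threshold (edgeR adjusted p = 0.0532).

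Cell type markers were counted and summed beside the genes, and their part in the results was not tested. Over all genes tested at P1, 2.77% were called higher in cKO hearts. The list of 12 activated fibroblast markers summed to 250.2 to 269 CPM in WT hearts and to 257, 814 and 381 CPM in KI/KI 4 to 6, the same order of hearts as for Postn and Tnc. At P1 the list summed to 1564 to 2066 CPM in floxed and to 2847, 3829 and 2062 CPM in cKO 4 to 6, overlapping in cKO 6. By mean level Acta2 was the largest part of these P1 sums, at 1285 CPM in floxed and 1865 CPM in cKO hearts. Of its 12 genes 5 were called higher in cKO hearts, the largest being Cilp (log2 fold change 2.70), Col8a1 (2.31), Ddah1 (1.67) and Meox1 (1.61), a factor that drives fibroblast activation (edgeR adjusted p from 0.00547 to 0.0129). Acta2, which marks myofibroblasts and smooth muscle, had a log2 fold change of 0.53 (edgeR adjusted p = 0.177).

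The 13 general cardiac fibroblast markers summed to 3924 to 4550 CPM in WT, 4447 to 5474 in KI/KI, 4807 to 5180 in floxed and 5721 to 6575 in cKO hearts. At P1 these sums did not overlap. Only Tcf21, a transcription factor of resident fibroblasts, was called in cKO hearts (log2 fold change 1.05, edgeR adjusted p = 0.0412). Pcolce (0.87), Ogn (0.996) and Col1a1 (0.56) were also higher at an adjusted p under 0.05 with less than a 2-fold change. That made 4 of 13 higher and 0 lower at that level (9.15% of all genes were higher). The 10 macrophage markers in the table summed to 265 to 396 CPM in WT, 417 to 497 in KI/KI, 147 to 178 in floxed and 180 to 350 in cKO hearts, without overlap at either age. C1qa and Cd68 were called in cKO hearts, with log2 fold changes of 1.27 and 1.03 (edgeR adjusted p of 0.0318 and 0.0130). Among the P1 hearts both Spp1 and the macrophage sum were highest in cKO 4, and within the floxed group both were highest in floxed 1. Between cKO 5 and cKO 6 the order was opposite: Spp1 was at 11.9 and 15.2 CPM, the macrophage sum at 244 and 180 CPM. The 10 cardiomyocyte markers summed to 92462 to 103363 CPM in WT, 71441 to 93784 in KI/KI, 59169 to 68585 in floxed and 50673 to 54429 in cKO hearts. At P1 these sums did not overlap, the cKO hearts being lower. Of this list Pln was called lower in cKO hearts (log2 fold change -1.09, edgeR adjusted p = 0.00878), as were 1.7% of all genes. At an adjusted p under 0.05, 4 of the 10 were lower and 0 higher (7.31% of all genes were lower). Lung markers did not separate the genotypes at either age. None of the genes on these lists was called in KI/KI hearts.

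Of 24 tested genes of the other matricellular families, such as Thbs3, Comp, Sparcl1 and the remaining CCN genes, 1 was called higher in cKO hearts, Wisp2 (log2 fold change 1.76, edgeR adjusted p = 0.0381), and the list's median was 0.07. Over all genes, 2.77% were called higher in cKO hearts. Thbs3 was at 38.2 ± 3.02 CPM in floxed and 35.4 ± 3.06 in cKO hearts. In KI/KI hearts 0 of 20 were called, with a median of 0.24. At an unadjusted p under 0.05, 8 of the 20 were higher and 2 lower (8.77% and 7.2% of all genes). In 8 of the 20 the KI/KI hearts lay wholly above the WT hearts, and in 2 wholly below (11.1% and 11.3% of all genes). The lowest unadjusted p values belonged to Spock2 (log2 fold change -0.38) and Wisp2 (2.32), which did not pass. Of 13 tested genes of the provisional matrix, 2 were called in cKO hearts. Among them was the crosslinking enzyme Tgm2 (log2 fold change 1.30, edgeR adjusted p = 0.0156). In KI/KI hearts 0 of 13 were called, F13a1 (0.60) and Vcan (1.09) having the lowest unadjusted p values.

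Among 26 receptors for these proteins, 2 were called higher in cKO hearts, syndecan Sdc4 (log2 fold change 1.16) and integrin Itgav (1.00), with edgeR adjusted p of 0.0335 and 0.0301. A further 9 were higher at an adjusted p under 0.05 with less than a 2-fold change, among them Cd44 (0.93), the osteopontin and hyaluronan receptor, and the fibronectin receptor chain Itga5 (0.81). Over all genes, 2.77% were called higher in cKO hearts and 9.15% were higher at an adjusted p under 0.05. Cd36, a thrombospondin receptor and fatty acid transporter, fell by 0.44 on the log2 scale (edgeR adjusted p = 0.0218). In KI/KI hearts 0 of 26 receptors were called, with a median log2 fold change of 0.27. Itgb2 (0.60) and Cd44 (0.81) had the lowest unadjusted p values there.

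Target genes of 3 pathways known to act on CCN and matrix genes were counted as well, and the lists share some genes with each other. The share of all genes called higher in cKO hearts was 2.77%. Of 19 further YAP and TEAD targets, 4 were called higher in cKO hearts (median of the list 0.40): Ankrd1, a cardiac stretch-response gene, at 726 ± 421 CPM in floxed and 4935 ± 1132 in cKO hearts (log2 fold change 2.76), Tgfb2 (1.42), Nt5e (1.11) and Amotl2 (1.01). Of 19 SRF and MRTF targets, 7 were called (median 0.71), the largest being Fos (2.51), Egr1 (1.81), Acta1 (1.77) and Cnn1 (1.32). Of 21 TGF-beta response genes, 5 were called (median 0.52), among them Inhba (1.78), Tgfb3 (1.62) and Tgfb2 (1.42). All called genes of the 3 lists had an edgeR adjusted p between 0.00494 and 0.0488. In KI/KI hearts none of the genes of these lists was called. The lowest unadjusted p values there belonged to Igfbp3 (-0.40) and F3 (-0.34) among the YAP and TEAD targets, Acta1 (2.40) and Cnn2 (0.32) among the SRF targets, and Tgfb2 (1.05) and Timp1 (1.87) among the TGF-beta response genes.

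Likeness to other genes was measured as Pearson's correlation of log2 CPM over the 12 hearts, centred within each age so that the difference between ages did not count. It is a description, over hearts that share their libraries and the genotype difference itself. Among the 10 genes, Postn and Sparc (0.96), Ctgf and Cyr61 (0.96) and Tnc and Thbs4 (0.93) were most alike, and no pair with Thbs2 exceeded 0.24. Among 14234 other genes, the most like Postn were Panx1 and Vcan (0.98 each), the most like Sparc were Col1a2 (0.99) and Dlg5 (0.97), and the most like Tnc were Ckap4 (0.99) and Igfbp7 (0.98). Ctgf was most like Ddb1 and Mafk (0.98 each), Cyr61 most like Plk3 (0.99) and Mob3a (0.98), and Spp1 most like Gpnmb (0.98). For Thbs1 the nearest were Qsox1 (0.96) and Creb3 (0.95), for Thbs4 Pls3 and Plcxd2 (0.98 each), for Fn1 Fat1 (0.99) and Bace2 (0.98), and for Thbs2 Kcnk1 and Ubfd1 (0.86 each). With Spearman's correlation 7 of the 20 genes that were nearest in this way, 2 for each of the 10, were named again.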

How the data were processed

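The deposited values are raw counts, which the authors made by trimming (Trim Galore), alignment to mm10 (STAR 2.7.2b) and counting per gene (HTSeq). The table has 12 columns, 1 per mouse, and every column was used. They were tested with edgeR 4.0.16 in R 4.3.3, using TMM, filterByExpr and the quasi-likelihood test with Benjamini-Hochberg adjustment over all tested genes. Each genotype comparison used its own 6 hearts, while the difference between the models and floxed against WT came from 1 fit of 12 hearts. A call needed both an adjusted p under 0.05 and a change above 2-fold. The standard error is the log2 fold change divided by the root of the F statistic. With 3 mice per group, precision is limited by the spread between mice. No replicate pair held identical counts, and their chi-square per degree of freedom was 20.2 to 146.

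Positions and exon lengths are from GENCODE M21 (GRCm38, the same assembly as mm10), and promoters from RefSeq. All 10 members are named, with up to 4 called genes of each related list, or 2 with the lowest unadjusted p where none was called, and for each member the 2 genes most correlated with it. Thbs3, Acta2, Cd44 and Itga5 in the P1 comparison, Cd36 and the genes checked for depth and labels were added after their values were seen. The members and lists were chosen with earlier results of these data known. Alternatives were DESeq2 1.42.0, limma-voom in limma 3.58.1, RLE and upper-quartile scaling, other filters, 1 fit of all hearts, a Y-linked covariate, a replicate block, other fold thresholds and each heart left out. The scripts were tested on simulated counts. The study's other assays were not analysed here. The values of 2 genes outside the 10 are not reported here.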

Additional observations from a re-analysis of the deposited data

Results flagged for a closer look

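Ctgf and Cyr61 differed in their response between the models at an adjusted p under 0.05 in the main edgeR test of the interaction, Ctgf less steadily. Ctgf rose in cKO hearts by 2.60 more on the log2 scale than it changed in KI/KI hearts (edgeR adjusted p = 0.0424), and every cKO heart lay above every floxed heart while KI/KI and WT hearts overlapped. For Cyr61 the difference was 2.56 (edgeR adjusted p = 0.0114), with mutant hearts above control hearts at both ages. With a heart left out in turn, Ctgf stayed under 0.05 in 3 of 12 edgeR fits and Cyr61 in 12 of 12. With the replicate number as a block in edgeR neither did (adjusted p = 0.141 and 0.0697). Both genes had lower means in floxed than in WT hearts (log2 fold changes -0.96 for Ctgf and -0.94 for Cyr61). The models differ in age, allele and control line, which cannot be told apart here.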

How the results depend on the processing

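Within each model the genotypes share no replicate number, but WT shares 1 to 3 with floxed and KI/KI shares 4 to 6 with cKO. Same-numbered hearts were different mice. Their deviations from their group means correlated at -0.54 to 0.21, and those of differently numbered hearts at -0.32 to 0.44. With 3 hearts per group, whose deviations add up to 0, these values cannot decide whether a number stands for a shared batch. With the number as a replicate block in edgeR, an alternative added after seeing the data, 8 genes were again called between floxed and WT, and 0 between the models, where no gene of the table was called (2 of the 10 at an unadjusted p under 0.05; Ctgf 2.47, adjusted p = 0.141; Cyr61 2.504, adjusted p = 0.0697).

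Of the 10 genes, DESeq2 called 2 in KI/KI hearts in place of 0 (152 in place of 0 over all genes), and leaving out a heart gave 0 to 1. In cKO hearts 5 were called, 8 with no fold change threshold, and 2 to 6 with a heart left out. Between the models 2 were called, 1 with limma-voom (Ctgf adjusted p = 0.0516), 1 with no filter (Ctgf adjusted p = 0.0636), and 1 to 2 with a heart left out. Over the other lists, 0 genes were called in KI/KI hearts and 33 in cKO hearts. DESeq2 called 10 in KI/KI hearts. Leaving out a heart gave 0 to 3 in KI/KI hearts (3 without KI/KI 4) and 2 to 50 in cKO hearts (2 without floxed 1, 12 without floxed 2, 11 without cKO 5 and 50 without cKO 6). Differences between the models that changed sign were Thbs4 (-0.0022 to 0.75, negative without KI/KI 4), Sparc (-0.54 to 0.10, positive without KI/KI 5) and Spp1 (-0.022 to 2.33, negative without cKO 4). None of these was called before or after. Between floxed and WT hearts Ctgf passed with DESeq2 (adjusted p = 0.0148) and RLE scaling (0.0489), and Spp1 did not with limma-voom (0.128). The causes of these changes were not tested. Leaving out Rn45s was chosen after seeing the data. An alternative without mitochondrial genes was not run, since the table holds 0 of them, nor was a Y-linked covariate in the adult hearts, which all carried Y-linked reads. Depth limits mainly Spp1 in WT hearts, at 14 to 19 counts.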
